A study of Mus musculus with 5 samples.

Results

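The miR-15/16 family is a group of small regulatory RNAs that share 1 seed and are known to restrain the cell cycle. Here it was followed through the activation of mouse T cells. Its members were taken by name: probes 1org-15a, 1org-15b, 1org-16 and 1org-195, which makes 4 of the 171 microRNA probes (178 probes in all) measured on every array. The study used 5 microarrays of 2 channels, and each held total RNA of activated CD4+25- T cells in one channel and of CD4+25- T cells not labelled as activated (naive cells, as the series title has it) in the other. Cells activated overnight were on 1 array, with their RNA in Cy5. Cells activated for 3 days and for 10 days were on 2 arrays each, with the dyes exchanged between them. CD4+25- cells carry the helper T cell marker CD4 and lack CD25, so they are helper cells without most regulatory T cells. All groups share this sort. The sources used here give no strain, age, activating agent or culture, and leave it unsaid if the arrays of one day held separate RNA extracts.

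A microRNA guides a silencing complex to messenger RNAs that pair with its seed, the bases near its 5′ end, and lowers their translation and stability. Members of the miR-15/16 family share that seed and so share many targets, among them the messenger RNAs of cyclins and cyclin-dependent kinases that drive cells from G1 into S phase, and of the survival factor Bcl2. MiR-15a and miR-16 lie in a locus that is often lost in chronic lymphocytic leukaemia, and the family is known as a brake on lymphocyte growth.

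The mature sequences are shown because the 4 members are alike enough for a reader to see where they differ. They come from RefSeq (build GRCm38.p6) and run 5′ to 3′, with the seed, bases 2 to 8, in capitals.
miR-15a-5p: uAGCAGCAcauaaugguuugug
miR-15b-5p: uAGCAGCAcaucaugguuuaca
miR-16-5p: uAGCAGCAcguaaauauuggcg
miR-195a-5p: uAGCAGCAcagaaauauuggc

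All 4 have the seed AGCAGCA, which 10 of the 1679 distinct mature names in the RefSeq table carry (0.596%). Counted from 1 at the 5′ end, miR-15a and miR-15b were identical at 18 of 22 positions. MiR-16 and miR-195a were identical at 19 of 21, and their only substitutions were G10A and U11G (miR-16 base first). MiR-15a and miR-16 were identical at 16 of 22. The probe sequences were not used here, so how far a probe binds another member's RNA is unknown, and the values of close pairs are uncertain to that degree.

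These RNAs come from 3 places in the genome. The sequence of miR-15a lies at chr14:61632075-61632096 on the minus strand, and a copy of miR-16 lies beside it at chr14:61631936-61631957, both inside the span of the long noncoding gene Dleu2. The sequence of miR-15b lies at chr3:69009775-69009796 and the second copy of miR-16 at chr3:69009918-69009939, both on the plus strand inside the span of Smc4, which encodes a subunit of the condensin complex that folds chromosomes for division. The 2 copies give the same mature miR-16, so the probe cannot tell them apart. MiR-195a lies apart from both, at chr11:70235062-70235082 on the plus strand, inside no other gene of the table. The annotation tied probes 1org-15a, 1org-15b and 1org-195 to Mir15a, Mir15b and Mir195a by gene ID. Probe 1org-16 has no annotated gene and was read as miR-16 by its number. No label says which arm of a hairpin a probe detects, and the 5p arm is shown as the usual guide strand.

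Values are log ratios of activated over naive cells, read as log2, although no label states the log base. Cy5 over Cy3 was taken as the direction of the deposited ratios. That is likely but not stated, and every direction here would turn with the opposite reading. The 2 arrays with activated RNA in Cy3 were multiplied by -1. Before turning, the 2 arrays of day 3 had r = -0.66 across the 171 microRNA probes, and for the day 10 pair r was -0.43; probes are not independent replicates. The array medians of the turned values ran from -1.75 overnight to 1.42 on a day 3 array. The main results are therefore given as deposited and after subtraction of each array's median over microRNA probes. Values with no scale named, such as those of the cell type lists, were not centred. Where a probe stood among the 171 probes of an array, from lowest to highest, is not moved by centring. Signal over background is unknown for each probe, and the number of arrays limits the precision.

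At day 3, 3 of the 4 members were lower in activated than in naive cells and the fourth was not. Probe 1org-16, for the member encoded at 2 loci, had log2 ratios of -2.99 with activated RNA in Cy5 and -1.70 with it in Cy3. Both arrays put it among the lowest probes, at rank 9 and rank 19 of 171 from the bottom. Its mean of -2.34 corresponds to a signal 19.7% of that of naive cells. Probe 1org-15a, whose sequence lies beside a copy of miR-16 in Dleu2, stood at -2.09 and -1.71 (ranks 17 and 18), with a mean of -1.90 or 26.8% of naive. Probe 1org-15b, the partner of miR-16 in Smc4, stood at -2.13 and -0.78 (ranks 16 and 27), with a mean of -1.45 or 36.6% of naive. As deposited, its 2 arrays were the farthest apart of the 4 members, and the Cy3 value alone was under 2-fold. After centring, 1org-15b stood at -2.33 and -2.20, both past 2-fold. The member with arrays farthest apart was then 1org-15a, at -2.29 and -3.13. Probe 1org-195 was on the other side of 0, at 0.36 and 1.03, near the middle of the probes at ranks 96 and 63.

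**Figure D1:**
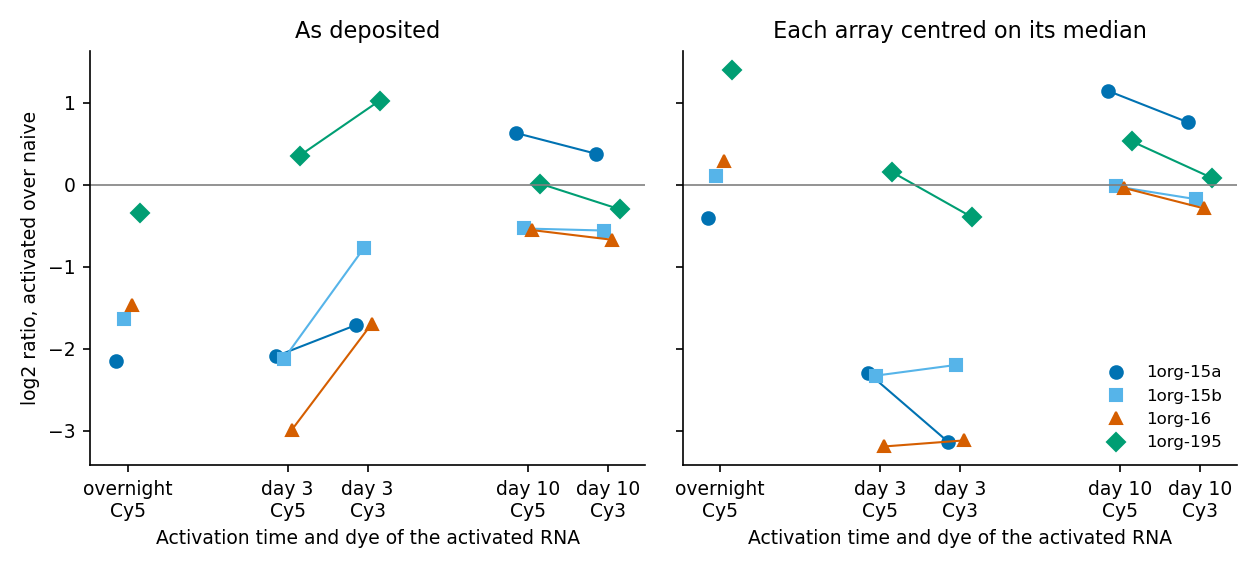
Log2 ratio of activated over naive cells (vertical axis) for the 4 miR-15/16 probes on each of the 5 arrays (horizontal axis, activation time and dye of the activated RNA), as deposited on the left and with array medians subtracted on the right. Each point is 1 array and lines join the 2 arrays of a day: 1org-15a, 1org-15b and 1org-16 lie between -2.99 and -0.78 at day 3 as deposited, below 1org-195 at 0.36 and 1.03, and 1org-15a is above 0 on both day 10 arrays.

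By the rule of a mean at least 2-fold from 0 (1 on the log2 scale) with the same sign on both arrays, 3 of the 4 members were lower at day 3 and none was higher, where 12.9% of all microRNA probes were lower and 38% higher. The median of the members was -1.68 beside 0.83 for all 171 probes. After centring 3 were again lower and none higher, beside 19.9% and 15.2% of all probes, with means of -3.15 for 1org-16, -2.71 for 1org-15a and -2.26 for 1org-15b. Centring left 1org-195 at -0.12, so its sign at day 3 turns with the centring. Limma over the 5 arrays, with a term for each time and one for dye, called the same 3 members lower (12.9% of all probes lower and 39.2% higher by this fit). The estimates and standard errors, with Benjamini-Hochberg adjustment over 171 probes, were -2.34 ± 0.45 for 1org-16 (adjusted p = 2.6e-06), -1.90 ± 0.45 for 1org-15a (adjusted p = 0.00014) and -1.45 ± 0.45 for 1org-15b (adjusted p = 0.0042). For 1org-195 the limma estimate was 0.69, with a 95% interval from -0.19 to 1.58 (adjusted p = 0.16). These p-values rest on array-to-array spread, and that spread may be technical only. The fit shared 1 estimate of spread over all probes, so its standard error is not that of a single probe.

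**Figure D2:**
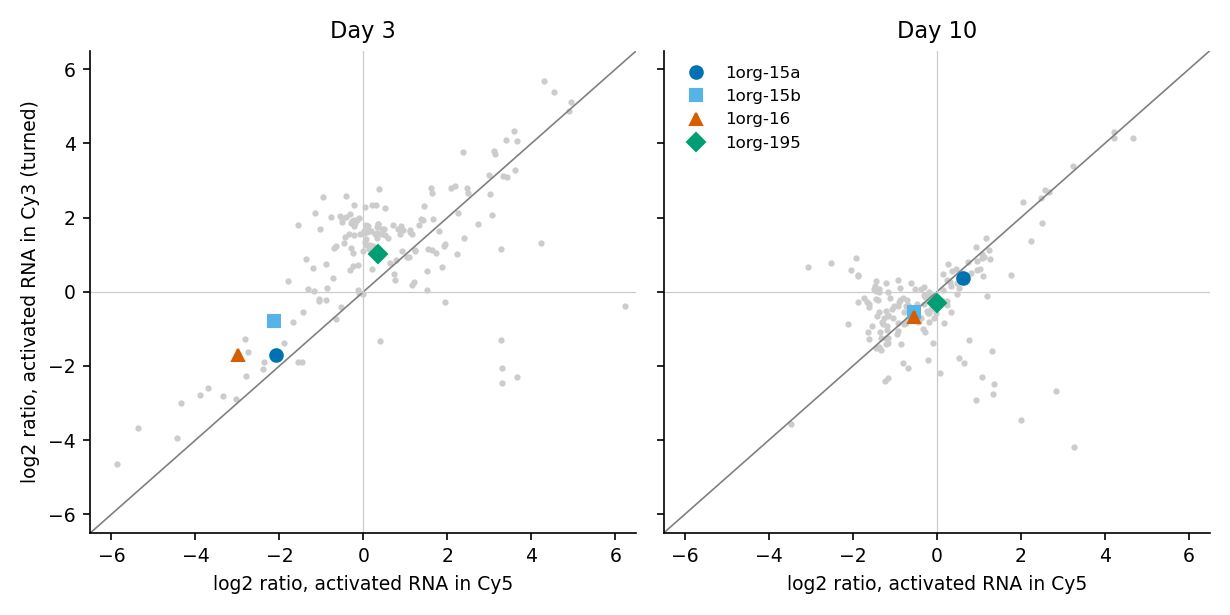
Log2 ratio on the array with activated RNA in Cy5 (horizontal axis) against the turned log2 ratio on the array with it in Cy3 (vertical axis), for day 3 on the left and day 10 on the right. Grey points are the 171 microRNA probes, coloured points the 4 members, and the diagonal marks equal values: at day 3, 1org-15a, 1org-15b and 1org-16 lie low on both axes while 1org-195 lies inside the main cloud, and at day 10 all 4 lie within 0.67 of 0 on both axes.

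The day 3 values depend on what they are set against. The 7 other small RNA probes (transfer and small nuclear RNAs) were themselves low at day 3, with means from -3.65 to 0.54 and a median of -1.91. Relative to the median of these 7 probes on each array, none of the members was 2-fold lower: 1org-16 stood at -0.69, 1org-15a at -0.24 and 1org-15b at 0.21, while 1org-195 stood at 2.35. The share of all microRNA probes lower or higher on this scale was not counted. As deposited, all microRNA probes had medians of 0.20 (Cy5) and 1.42 (Cy3) at day 3, beside -1.85 and -1.47 for these 7 probes. A probe at the median of all probes was thus over 2-fold higher on this scale, as 1org-195 was. The order of the 4 members was the same in each of these scalings, since a shift of a whole array moves all probes alike.

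At day 10 no member was 2-fold from naive cells as deposited or after median centring. Relative to the other small RNA probes 1org-15a was 2-fold higher, but the share of all probes was not counted on that scale. That call is therefore not read as a trait of the probe. Probe 1org-16 stood at -0.55 and -0.67 and 1org-15b at -0.53 and -0.56, both with close values on the 2 arrays. Their means of -0.61 and -0.54 correspond to 65.5% and 68.6% of naive. They lay near the middle of all probes, at ranks 83 and 61 for 1org-16 and at ranks 84 and 71 for 1org-15b. Probe 1org-15a was above 0 on both arrays, at 0.63 and 0.38, and at rank 36 of 171 from the top on each. Probe 1org-195 had opposite signs on the 2 arrays, at 0.02 and -0.30. The size rule took 0 of 4 members in either direction, beside 17% of all microRNA probes lower and 9.94% higher. The median of the members was -0.34, beside -0.56 for all probes.

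After centring, 1org-15a stood at 0.95 and the other members between -0.16 and 0.31, again with none 2-fold from 0 (4.09% of all probes lower and 14.6% higher). Limma over the 5 arrays called none of the 4 at day 10 (11.7% of all probes lower and 7.02% higher), with adjusted p from 0.30 to 0.80 and 0 of 4 by the size rule. The 95% interval for 1org-16 ran from -1.49 to 0.27 and that for 1org-15a from -0.38 to 1.39, so 2-fold differences from naive cells lay within the intervals. Relative to the 7 other small RNA probes, 1org-15a stood at 1.12 and 1.11 on the 2 arrays, and the means of the other members were within 0.47 of 0. How many of all microRNA probes were 2-fold higher on that scale was not counted.

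Between days 3 and 10, 1org-15a and 1org-16 were higher at the later time, with no overlap between the arrays of the 2 days. These differences share the naive cells, since both days were set against them. Probe 1org-15a moved from a mean of -1.90 to 0.51, a difference of 2.41 on the log2 scale, and from below naive to above it on both arrays. Only 5 of 171 probes had a larger difference in that direction. Probe 1org-16 moved from -2.34 to -0.61, a difference of 1.73 (rank 12 from the top). For 1org-15b the difference was 0.91 (rank 24), with no overlap of arrays but under 2-fold. Probe 1org-195 went from 0.69 to -0.14, a difference of -0.83 (rank 63). All 171 probes had a median difference of -1.22.

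**Figure D3:**
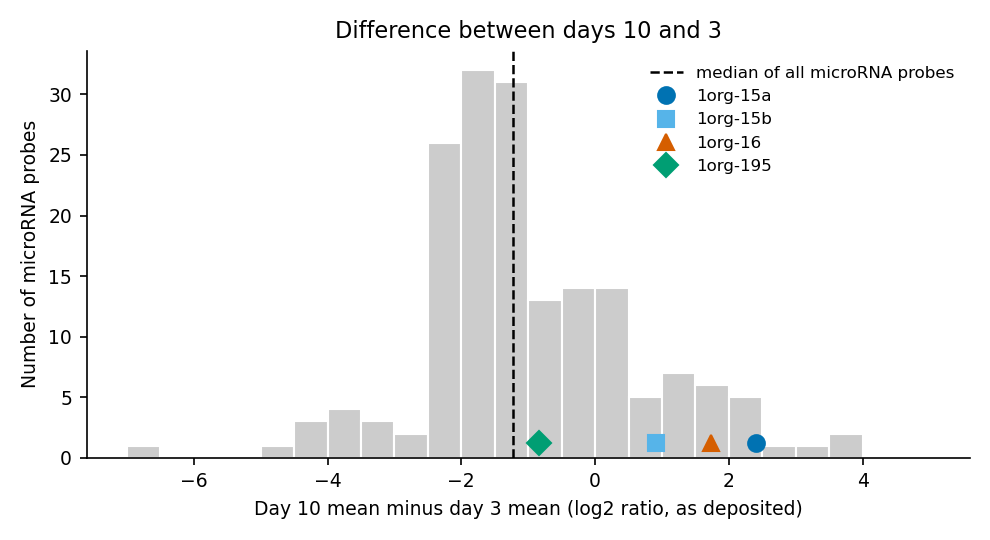
Distribution over the 171 microRNA probes (vertical axis, number of probes in bins 0.5 wide) of the day 10 mean minus the day 3 mean of the log2 ratio (horizontal axis), as deposited. Coloured symbols mark the 4 members, at 2.41, 1.73, 0.91 and -0.83 for 1org-15a, 1org-16, 1org-15b and 1org-195, and the dashed line marks the median of all probes at -1.22.

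By size and absence of overlap, 2 of the 4 members were higher at day 10 than at day 3 and none lower, beside 12.9% of all probes higher and 41.5% lower. After centring, 3 were higher and none lower, beside 28.1% and 13.5% of all probes, at 3.67 for 1org-15a, 2.99 for 1org-16 and 2.16 for 1org-15b, with 1org-195 at 0.43. In limma over the 5 arrays, the difference itself passed for 1org-15a (2.41 ± 0.63, adjusted p = 0.0017) and 1org-16 (1.73 ± 0.63, adjusted p = 0.017), where 8.77% of all probes were called higher and 43.9% lower. It missed the threshold for 1org-15b (95% interval -0.34 to 2.16, adjusted p = 0.20) and 1org-195 (95% interval -2.08 to 0.42, adjusted p = 0.24). After centring, 1org-15b passed as well (adjusted p = 0.00053), beside 21.6% of all probes higher and 7.6% lower. Within arrays of the same dye, as deposited, 1org-15a differed by 2.72 in Cy5 and 2.09 in Cy3, and 1org-16 by 2.44 and 1.03. For 1org-15b the difference as deposited was 1.59 in Cy5 and 0.22 in Cy3, over 2-fold in Cy5 alone. After centring, 1org-15b went from -2.326 to -0.019 in Cy5 and from -2.196 to -0.175 in Cy3, over 2-fold in both. Relative to the 7 other small RNA probes, the differences were 1.36 for 1org-15a, 0.68 for 1org-16, -0.14 for 1org-15b and -1.88 for 1org-195. On that scale 1org-15a was 2-fold higher at day 10, 1org-195 was 2-fold lower without overlap of its arrays, and the sign of 1org-15b turned. The shares of all probes on that scale were not counted. As deposited, the difference of 1org-195 (-0.83) was above the median of all probes (-1.22).

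Overnight, 1org-15a stood at -2.15, 1org-15b at -1.63, 1org-16 at -1.46 and 1org-195 at -0.34 on the only array. Of the 4, 3 were at least 2-fold lower, but so were 73.1% of all microRNA probes (4.09% were higher), and the median of the array was -1.75. After centring none was 2-fold lower (4.09% of all probes were), and 1org-195 was higher at 1.41 (21.6% of all probes). Probes 1org-15b and 1org-16 then stood at 0.11 and 0.29, so their sign overnight turns with the centring. Among the 171 probes, 1org-16 was at rank 110 from the bottom and 1org-195 at rank 139. There was 1 array without a dye swap and hence no test on that array alone. With the dye effect of the 2 pairs taken off, the values as deposited were -2.12, -1.30, -1.17 and -0.25 in the same order of members, and the limma fit called only 1org-15a lower (adjusted p = 0.016, beside 38.6% of all probes lower and 1.75% higher). Its spread comes from the other days alone, and the lone array is assumed to vary like them. After centring that call was lost (limma adjusted p = 0.61).

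The 3 arrays with activated RNA in Cy5 share a dye orientation, but the dye effect as deposited was not the same on each day. Estimated as the distance of the Cy5 array from the pair mean, it was -0.65 at day 3 and 0.06 at day 10 for 1org-16. Its median size over all microRNA probes was 0.55 and 0.20. This estimate includes any shift between the medians of the 2 arrays, which were 0.20 and 1.42 at day 3. After centring, 1org-16 stood at -3.19 (Cy5) and -3.12 (Cy3) at day 3, and at -0.04 and -0.29 at day 10. The overnight array has no dye estimate of its own. On these 3 arrays, 1org-16 stood at -1.46 overnight, -2.99 at day 3 and -0.55 at day 10, lowest at day 3. For 1org-15a the 3 values were -2.15, -2.09 and 0.63, so the overnight and day 3 values lay within 0.06 of each other as deposited. After centring 1org-15a was lower at day 3 than overnight by a difference of -1.89, 1org-16 by -3.48, 1org-15b by -2.44 and 1org-195 by -1.25, so all 4 were over 2-fold lower on that scale. Each is 1 array against 1 array, with no measure of spread. The share of all microRNA probes over 2-fold lower in this comparison was not counted, so the 4 are not read as a trait of the family.

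**Figure D4:**
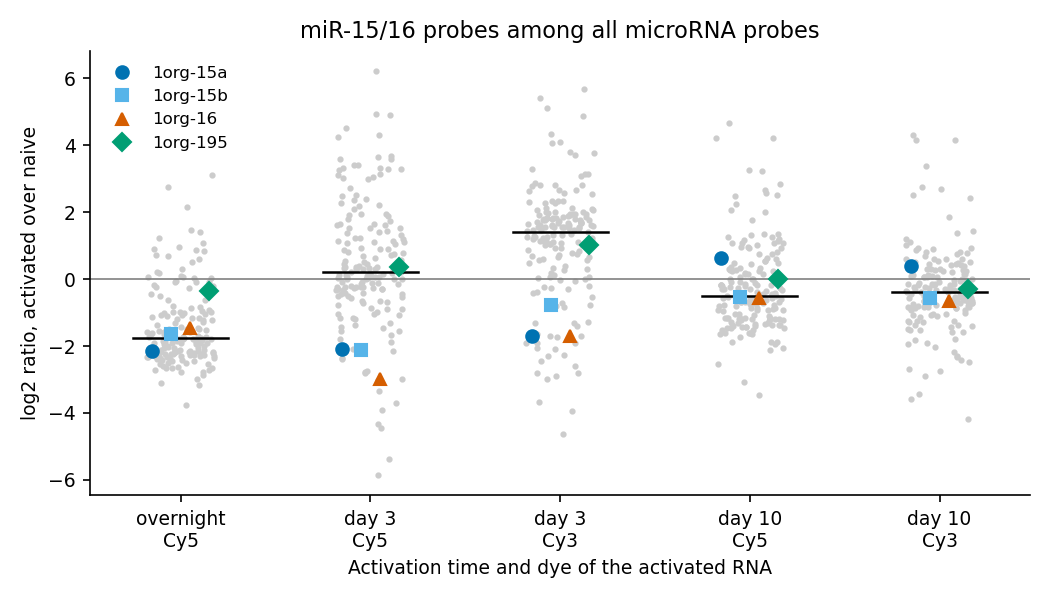
Log2 ratio of activated over naive cells (vertical axis) of all 171 microRNA probes (grey points, spread sideways at random within an array) on each of the 5 arrays (horizontal axis), as deposited. Black bars are array medians and coloured symbols the 4 members: 1org-15a, 1org-15b and 1org-16 stand far below the median on both day 3 arrays, and close to it or above it on the day 10 arrays.

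Taken over the 3 times as 3 replicates, no member differed from 0. The means were -1.47 for 1org-16, -1.21 for 1org-15b, -1.18 for 1org-15a and 0.07 for 1org-195, each with a pooled standard error of 0.93 (limma, n = 3 times, adjusted p from 0.84 to 0.95). None of the 4 had an unadjusted p under 0.05 in this fit, and 0% of all probes passed after adjustment. When limma instead took every array as a replicate, with a dye term, only 1org-16 of the members was under an unadjusted 0.05. None of the 4 passed once adjusted (smallest adjusted p = 0.24, for 1org-16), beside 2.34% of all probes lower and 3.51% higher. An ordinary test without pooled spread, over the 3 times, also left no member under an unadjusted 0.05. Probes 1org-15b and 1org-16 were below 0 on all 5 arrays as deposited, as were 10.5% of all microRNA probes. After centring no member was below 0 on all 5.

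The range of the 4 members on an array was widest at day 3, at 3.35 and 2.74, beside 1.18 and 1.05 at day 10. All microRNA probes were also spread more widely then, with 2.07 and 1.70 between their quartiles beside 1.53 and 1.07. Not every pair followed: 1org-15a minus 1org-15b had a mean of -0.45 at day 3 and 1.05 at day 10. For 1org-15a minus 1org-16 the means were 0.44 and 1.12. MiR-16 and miR-195a, with only G10A and U11G between their mature sequences, gave the largest distance: on the same array, 1org-16 was below 1org-195 by a difference of -3.35 and of -2.72 at day 3. At day 10 the same difference was -0.57 and -0.37, and overnight it was -1.12. Probe 1org-16 was thus the lower of the 2 on all 5 arrays, and so was 1org-15b against 1org-195. Differences between probes on one array are free of any centring. Whether they exceed the error of a probe was not tested.

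**Figure D5:**
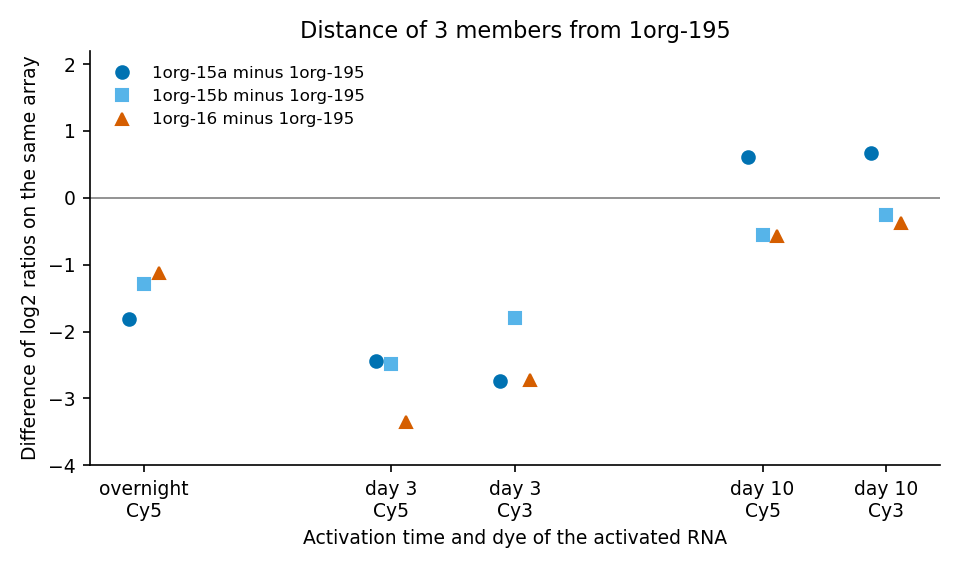
Difference of log2 ratios on the same array (vertical axis) between each of 1org-15a, 1org-15b and 1org-16 and probe 1org-195, for the 5 arrays (horizontal axis). All 3 differences lie between -3.35 and -1.80 on the day 3 arrays and between -0.57 and 0.68 on the day 10 arrays, where 1org-15a alone is above 0.

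Members that lie in one host gene did not keep 1 distance. Probe 1org-15a, beside miR-16 in Dleu2, was above 1org-16 by 1.18 and 1.05 on the day 10 arrays, but by 0.90 and -0.02 at day 3 and by -0.69 overnight. Probe 1org-15b, beside the other copy in Smc4, was within 0.11 of 1org-16 on both day 10 arrays and 0.17 below it overnight, and stood above it by 0.86 and 0.92 at day 3. Since both copies give the same mature miR-16, these distances do not belong to either host gene alone. Probes 1org-15a and 1org-15b had no one order at day 3: 1org-15a minus 1org-15b was 0.04 in Cy5 and -0.94 in Cy3. At day 10 the difference was 1.17 and 0.94, with 1org-15a higher on both arrays. Over the 5 arrays the root mean square of the differences was 0.57 for 1org-15b and 1org-16, 0.82 for 1org-15a and 1org-15b, and 0.87 for 1org-15a and 1org-16, beside a median of 1.74 over all 14535 pairs of probes. From 1org-195 to the other members it was 1.88 for 1org-15a, 1.51 for 1org-15b and 2.02 for 1org-16. Ordered by this distance among 170 other probes, 1org-15b was at rank 4 and 1org-16 at rank 6 from 1org-15a. Seen from 1org-16, 1org-15b was at rank 5 and 1org-15a at rank 13. From 1org-15b, 1org-16 was at rank 1 and 1org-15a at rank 16, so probes outside the family lay nearer in most of these pairs.

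By the same measure, which neither turning nor centring moves, the probes nearest to 1org-15a outside the family were 3 let-7 probes, 1org-7i (0.45), 1org-7f (0.51) and 1org-7a (0.77). Nearest to 1org-16 were 1org-30c (0.29), 1org-7a (0.39) and 1org-30d (0.46). Probe 1org-30c had values close to those of 1org-16 on every array, with -1.57 on the overnight array, -2.79 and -2.28 on the day 3 pair, and -0.58 and -0.55 on the day 10 pair. Nearest to 1org-15b were 1org-7a (0.60), 1org-29a (0.62) and 1org-7e (0.62), while 1org-16 itself was closer to it than any other probe. Nearest to 1org-195 were 2org-198 (0.34), 2org-320 (0.46) and 1org-103 (0.47), and its family lay far from it, with 1org-15b nearest at rank 114 of 170. Without the overnight array 4 of these 12 neighbours were again among the nearest 3, so the order rests in part on that array.

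MiR-103 and miR-107 are seed relatives that lie in genes for pantothenate kinases, and are shown because the family's seed recurs in them 1 base nearer the 5′ end.
miR-103-3p: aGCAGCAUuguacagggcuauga
miR-107-3p: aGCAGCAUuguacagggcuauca

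Both contain the stretch AGCAGCA of the family from their first base, so that their own seed (capitals) is shifted. The 2 differed from each other only by G22C (miR-103 base first). At day 3 they were on the other side of 0 from miR-15a, miR-15b and miR-16. Probe 1org-103 stood at 0.89 and 1.78 and 2org-107 at 1.12 and 1.60, both at least 2-fold higher on average (38% of all probes were) and called higher by limma over the 5 arrays (adjusted p = 0.0087 and adjusted p = 0.0075). After centring both were under 2-fold, at 0.52 and 0.55. At day 10 they stood near naive cells, with means of 0.10 and 0.28. No other relative of the list, miR-322, miR-424, miR-497, miR-503 or miR-646, had a probe in the table.

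Other microRNAs known to restrain the cell cycle, a list with let-7, miR-34, miR-26, miR-143 and miR-145, were mixed at day 3, when 8 of the 17 probes passed the size rule as lower and 5 as higher, beside 12.9% and 38% of all probes. Their median was -0.65, beside 0.83 for all probes, and after centring 10 were lower and 2 higher (19.9% and 15.2% of all probes). The farthest from 0 were 1org-26a (-4.44 and -3.95) and 1org-7c (-4.33 and -2.99). Between days 3 and 10, 9 of the 17 were higher and 3 lower by size and absence of overlap, beside the 12.9% and 41.5% of all probes given above. After centring 12 were higher and 1 lower, beside 28.1% and 13.5% of all probes. Of 14 probes for microRNAs known to promote growth, among them the miR-17 clusters, miR-21, miR-221 and miR-222, 6 were higher and 1 lower at day 3, near the shares of all probes (38% and 12.9%). The farthest from 0 were 2org-222 (2.48 and 2.80) and 1org-18 (3.05 and 2.06). Their median was 0.68, below the 0.83 of all probes, and after centring 4 were higher and 4 lower (15.2% and 19.9% of all probes). At day 10, 5 of them were higher and 1 lower, beside 9.94% and 17% of all probes. After centring the day 10 count was 9 higher and 0 lower, beside 14.6% and 4.09%. From day 3 to day 10, 2 of the 14 were higher and 1 lower by size and absence of overlap, beside 12.9% and 41.5% of all probes. After centring 11 were higher and 0 lower, beside 28.1% and 13.5% of all probes. Higher values at day 10 on that scale were thus not particular to the restraining list.

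Log ratios hold no level, so the cell type could not be checked by the presence of its markers, and fewer cells of a type and less RNA per cell cannot be told apart. Of 7 lymphocyte probes (miR-142, miR-150, miR-155 and miR-181), 5 were lower and 1 higher at day 3 (12.9% and 38% of all probes), with 1org-150 at -5.86 and -4.63 and 1org-155 at 4.89 and 4.87, 2 probes picked out after their values were seen. The myeloid probe 2org-223 stood at -1.36 and 0.88 at day 3, and the erythroid 1org-144 at 0.53 and 1.53. Day 3 medians were 0.68 for 5 epithelial and liver probes, 0.83 for 4 muscle probes and 0.92 for 2 neural probes, all close to that of 1org-195 (0.69) and of all probes (0.83). The 3 miR-200 probes among the epithelial ones had opposite signs on the 2 day 3 arrays, with 1org-200b at 3.67 and -2.31, so their pair means average values of opposite sign. On 4 of the 5 arrays 1org-195 lay between the quartiles of all microRNA probes. On the overnight array it stood at -0.34, above the upper quartile of -0.97. The medians there were 0.87 for the epithelial and liver probes, -1.73 for muscle and -1.92 for neural, so the likeness holds for day 3 only. The part of other cell types, and of signal near background, in these values was not tested.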

How the data were processed

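The deposited table holds log ratios of the 2 channels of each array, read here as log2 values; no source used here gives the log base, numerator, scanner or normalization. The labels gave each array's group and dyes. The 178 probes had 0 missing values, and counts and tests left out 7 of them (transfer and small nuclear RNAs). Arrays with activated RNA in channel 1 were multiplied by -1, and the 2 arrays of a day were averaged. Within a day no test was the main result, as both arrays of a day may hold the same RNA: a probe counted where its mean was at least 2-fold from 0 and both arrays had one sign. Between days it counted where means differed by at least 2-fold without overlap. Over times, the mean of 3 values was set against 0 by limma 3.58.1 under R 4.3.3 (lmFit then eBayes; 2-sided p adjusted over 171 probes by Benjamini-Hochberg, threshold 0.05). The naive RNA's own spread is left out.

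Alternatives were centring on the microRNA median or on the 7 other small RNA probes, equal scale of arrays, a 1.5-fold threshold, limma over 5 arrays with a dye term, the dye effect taken off the overnight array, and leaving out each array. The rule for names took the 4 members, the 3 probes nearest to each by root mean square difference, the probes of seed relatives, and the 2 farthest from 0 at day 3 on each growth list. Tables were joined in Python 3.11.15 with pandas 2.3.3. The fits were run on simulated data with large shifts, equal at all times, and a dye effect equal on all days. That setting is easier than these data, so it checked the code and not how well the tests work here. The members and lists were chosen with earlier results of these data known.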

Additional observations from a re-analysis of the deposited data

Results flagged for a closer look

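The difference between days 3 and 10 was flagged for 2 members of the family. By size and absence of overlap, 12.9% of all microRNA probes were also higher at day 10 and 41.5% lower. Probe 1org-15a was below 0 on both day 3 arrays (-2.09 and -1.71) and above 0 on both day 10 arrays (0.63 and 0.38), a difference of 2.41 that passed limma over the 5 arrays (adjusted p = 0.0017). Probe 1org-16 differed by 1.73 (adjusted p = 0.017 in the same limma fit) and was below 0 at both times. Both differences rest on 2 arrays a day that may be technical replicates. Groups here hold at most 2 arrays, too few to look for a single array that stands apart.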

How the results depend on the processing

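Setting arrays against the 7 other small RNA probes changed most: the number of members at least 2-fold lower went from 3 to 0 at day 3, with 1org-15b turning to 0.21, from 3 to 0 overnight, and the number higher at day 10 than at day 3 from 2 to 1. On the same scale 1org-195 passed 2-fold as higher at day 3 (2.35) and as lower at day 10 than at day 3 (-1.88), and 1org-15a as higher at day 10 (1.11). Shares of all microRNA probes were not counted on that scale for any of these calls. As deposited, 1org-195 was near the median of all probes, at 0.69 beside 0.83 at day 3. In day 10 minus day 3 it stood at -0.83 beside -1.22. Its calls on that scale are therefore not read as a trait of the probe. Median centring took the 3 lower overnight to 0, with 1org-15b turning to 0.11 and 1org-16 to 0.29, and limma over the 5 arrays called 1. At a 1.5-fold threshold 1 member, not 0, was lower at day 10. With arrays at one scale, the day 3 distance of 1org-195 above the mean of the other 3 was 2.09 in place of 2.59. Of the 12 nearest probes 4 were kept without the overnight array. The cause of these changes was not tested. In the 80 values of single members under the alternatives of scaling or a left-out array, 53 kept their sign and their side of the 2-fold rule. With the Cy5 array of day 3 left out, 1org-15b as deposited was at -0.78, under 2-fold, and 2 of 4 members were lower at day 3. Probe 1org-195 then passed 2-fold at day 3 (1.03) and in day 10 minus day 3 (-1.17). The median of all probes on the remaining Cy3 array was 1.42, above 1org-195 (rank 63 of 171 from the bottom). After centring, 1org-15b stood at -2.20 on that array. Shares of all probes were not counted with this array alone, so these calls of 1org-195 are not read as a trait of the probe. No member passed the test over 3 times in any alternative. The labels give no replicate numbers, and the dye term stands for the replicate block of the 2 dye pairs. Signal over background is unknown for every probe.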
